A study of Mus musculus with 36 samples.

Results

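Cyp2f2, Adh1, Gstt1, Phyh, Sult1e1, Gstm1 and Gsto1 encode enzymes that modify foreign compounds, steroids and lipids. In Drop-seq of the mouse submandibular salivary gland, each was highest in a duct population among named cell types with at least 50 control cells. The 7 genes, of 29219 with a transcript in the Drop-seq glands, were chosen by their measured levels across cell types and, for Sult1e1, by its measured difference between control males and females. Their duct levels and that sex difference are therefore a description and carry no test.

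The study followed a mouse model of salivary gland tumors by Drop-seq, a droplet method that counts unique molecular identifiers (UMIs) per cell. Double mutants carried a gain of function (GOF) of beta-catenin and a loss of function (LOF) of Bmpr1a, both driven by K14-Cre, which acts in cells that use the keratin 14 promoter, with an EYFP reporter of recombination. Control glands carried K14-Cre and EYFP without these alleles, according to the study's methods. Each of the 26 Drop-seq libraries was 1 gland, from postnatal day 40 (P40; 6 controls, 7 double mutants) or postnatal day 90 (P90; again 6 and 7). Further data were 4 P70 libraries of CITE-seq, which adds antibody tags to the RNA counts (2 double mutants and 1 control labelled female, 1 control labelled male), and 1 bulk RNA-seq library per genotype from females, the control at P70 and the double mutant at P100.

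Detoxification runs in steps. Phase I enzymes such as cytochromes P450 and alcohol dehydrogenases oxidize a compound, and phase II enzymes such as glutathione S-transferases and sulfotransferases attach a water-soluble group. In rodents the salivary ducts differ between the sexes: the granular ducts of males are large, respond to androgens and store Egf, renin and kallikreins.

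Of 26987 deposited barcodes, 23346 were kept as cells (606 to 1209 per gland, 650301 to 6994504 UMIs), and 14 barcodes occurred in more than 1 library, with at most 1 shared by any pair. Clustering without the 7 genes gave 4 duct-like populations of 5510 cells in all, each named from its markers. These were Klk1+ cells (led by Klk1 and Fxyd2), Egf+ cells (Ren1 and Egf), Smgc+/Esp4+ cells (Esp4, Esp18 and Smgc) and Ascl3+ cells (Ascl3, Foxi1 and Hepacam2). The name Smgc+/Esp4+ rests on 3 of 6 listed markers. That cluster also passed 6 markers of luminal Clu+ tumor cells, and Klk1+ cells passed 5. At resolution 0.7 the cluster led by Ltf and Esp4 passed 7 of these and had no name. Whether its double-mutant cells include tumor cells was not tested. The remaining 3508 cells without a name lay in 5 clusters. The 14 shared barcodes and these cells were kept in sums over whole glands. In 2 double-mutant libraries Xist and Y-linked transcripts went against the sex label: the library labelled male (P40 replicate 1) had 266 counts per 1000000 UMIs (CPM) of Xist and 0.450 of 4 Y-linked genes, and the library labelled female (P90 replicate 5) had 0 and 280. In the other 24 libraries females had 67.2 to 357 CPM of Xist and males 45.9 to 200 of the Y-linked genes.

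To show where transcription of the genes starts, promoter windows of 4 members were read from RefSeq (GRCm38.p6, 250 bases before to 50 after the start, read 5′ to 3′ on the gene's strand). Sult1e1 and Gsto1 are shown because their levels passed the genotype test, Phyh because it passed at P90, and Adh1 because its level differed most between the sexes of control glands after Sult1e1. Capitals mark the steroid receptor half-site AGAACA or its reverse complement TGTTCT.
Sult1e1, chr5:87591562-87591861, minus strand: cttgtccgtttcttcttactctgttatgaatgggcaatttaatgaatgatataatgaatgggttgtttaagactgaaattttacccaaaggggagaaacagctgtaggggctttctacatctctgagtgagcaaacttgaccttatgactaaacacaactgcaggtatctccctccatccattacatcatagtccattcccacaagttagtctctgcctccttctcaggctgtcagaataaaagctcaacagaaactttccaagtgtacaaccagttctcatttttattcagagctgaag
Gsto1, chr19:47854723-47855022, plus strand: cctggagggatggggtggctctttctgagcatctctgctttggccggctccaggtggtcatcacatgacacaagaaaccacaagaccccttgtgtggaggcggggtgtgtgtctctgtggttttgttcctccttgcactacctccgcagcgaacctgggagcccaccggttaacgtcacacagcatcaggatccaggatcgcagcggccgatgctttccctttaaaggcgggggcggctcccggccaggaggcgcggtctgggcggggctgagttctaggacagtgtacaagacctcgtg
Phyh, chr2:4918746-4919045, plus strand: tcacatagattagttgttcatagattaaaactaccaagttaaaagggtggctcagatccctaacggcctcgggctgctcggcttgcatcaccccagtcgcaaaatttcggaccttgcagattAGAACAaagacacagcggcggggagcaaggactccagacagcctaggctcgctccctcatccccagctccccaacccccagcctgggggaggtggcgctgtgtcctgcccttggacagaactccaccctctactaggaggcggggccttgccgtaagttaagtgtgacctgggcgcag
Adh1, chr3:138277335-138277634, plus strand: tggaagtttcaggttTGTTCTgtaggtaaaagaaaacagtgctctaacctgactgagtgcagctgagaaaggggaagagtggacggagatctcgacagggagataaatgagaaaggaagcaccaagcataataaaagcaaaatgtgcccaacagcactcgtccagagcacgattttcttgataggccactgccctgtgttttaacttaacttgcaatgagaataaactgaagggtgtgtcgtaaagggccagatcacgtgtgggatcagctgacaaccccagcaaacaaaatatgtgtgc
The half-site, searched on both strands, was in 19% of 32851 promoter windows of this length. It was present in the windows of Cyp2f2, Adh1, Phyh and 1 of 2 windows of Gstm1, which held 2 copies, and these letters were not in the windows of Sult1e1, Gsto1 and Gstt1. The antioxidant response element core TGACNNNGC, in 12.4% of all windows, and the TCF/LEF core CTTTGAT, in 3.73%, were in no window of the 7 genes. The dioxin response element core GCGTG, in 32.4% of all windows, was in both Gstm1 windows and in no other. In the GENCODE vM21 annotation of the same build the Adh1 gene begins upstream of this window, so the window lies within the annotated gene.

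Each of the 7 genes had its highest level in a duct population among the 13 named cell types with at least 50 control cells, but not in the same one. The orders that follow leave out the unnamed clusters, some of which lay above the runners-up. The cluster led by Cnn1 and Sostdc1 had 501 CPM of Cyp2f2, 268 of Gstm1 and 156 of Gsto1. Another had 441 of Phyh and 174 of Adh1. Cyp2f2, a cytochrome P450 known for activating naphthalene in airway club cells, was at 1595 CPM in Klk1+ cells and 1542 in Smgc+/Esp4+ cells. Over 12 control glands with at least 10 such cells it ranged from 224 through a median of 1646 to 2493 in Klk1+ cells, and from 496 through 1398 to 3149 in Smgc+/Esp4+ cells. These ranges overlapped almost entirely. Ascl3+ cells (647) and Egf+ cells (395) followed, and acinar cells, which make the bulk of saliva protein, were lowest of the 13 at 45.6. The order of Ascl3+ and Egf+ cells depended on sex. Egf+ cells were at 305 in control males (849 cells) and 1263 in control females (144 cells). Ascl3+ cells were at 437 and 790.

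Adh1, an alcohol dehydrogenase that oxidizes ethanol and retinol, Gstt1, a theta-class glutathione S-transferase, and Phyh, the peroxisomal enzyme that starts the alpha-oxidation of phytanic acid, were highest in Smgc+/Esp4+ cells. Adh1 was there at 272 CPM against 51.5 in Klk1+ cells, and its 12 glands ran from 0 through a median of 110 to 542. Gstt1 was at 133, with glands from 0 through 84.1 to 367, and fibroblasts, at 88.4 from 11 UMIs, came next. Phyh was at 602, with glands from 63.5 through 297 to 1319. Basal cells (298) and Klk1+ cells (272) followed for Phyh, and their glands ran within the range of Smgc+/Esp4+ cells, so that no order among these 3 held beyond the spread. Duct cells held 36.8% of Phyh UMIs in control glands, the lowest share of the 7 genes, and acinar cells held 43.2% at a level of 71.3.

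Gstm1, a mu-class glutathione S-transferase, was highest in Ascl3+ cells at 319 CPM (glands from 115 through 340 to 1017), followed by Klk1+ cells at 263 and Smgc+/Esp4+ cells at 181, with overlapping ranges. Gstm1 has close relatives in the same gene cluster, and how the counting divided reads among them is uncertain. Gsto1, an omega-class glutathione transferase that reduces arsenic compounds and dehydroascorbate, was highest in Egf+ cells at 204 (9 glands, from 71.2 through 200.4 to 236). Basal cells (106) and Klk1+ cells (90.2) followed. The highest basal gland stood at 195 and the highest Klk1+ gland at 123, so both ranges overlapped that of Egf+ cells. Egf+ and Klk1+ cells were at 111 and 96.9 in control females and at 214 and 79.3 in control males.

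Sult1e1, the sulfotransferase that inactivates estrogens, was nearly limited to 1 population. Egf+ cells held 95.8% of its UMIs in control glands, at 185 CPM (9 glands, from 0 through 94.8 to 373). No Sult1e1 UMI was seen in basal, T/NK, cycling or Ascl3+ cells of control glands, and acinar cells had 3 UMIs among 4328 cells. Background RNA can be judged from immune cells: T/NK cells of control glands had 179 CPM of Cyp2f2 from 33 UMIs, 114 of Phyh and 108 of Gstm1, at a median of 810.5 UMIs per cell against 1287.5 in Klk1+ cells. Levels of these 3 genes at or below those values in other cells of like depth were not read as expression. Acinar cells had a median of 3943 UMIs, so CPM does not settle this for Phyh there. They held 1727 Phyh UMIs in 4328 cells, against 21 in 146 T/NK cells, and whether these were background was not tested.

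**Figure D1:**
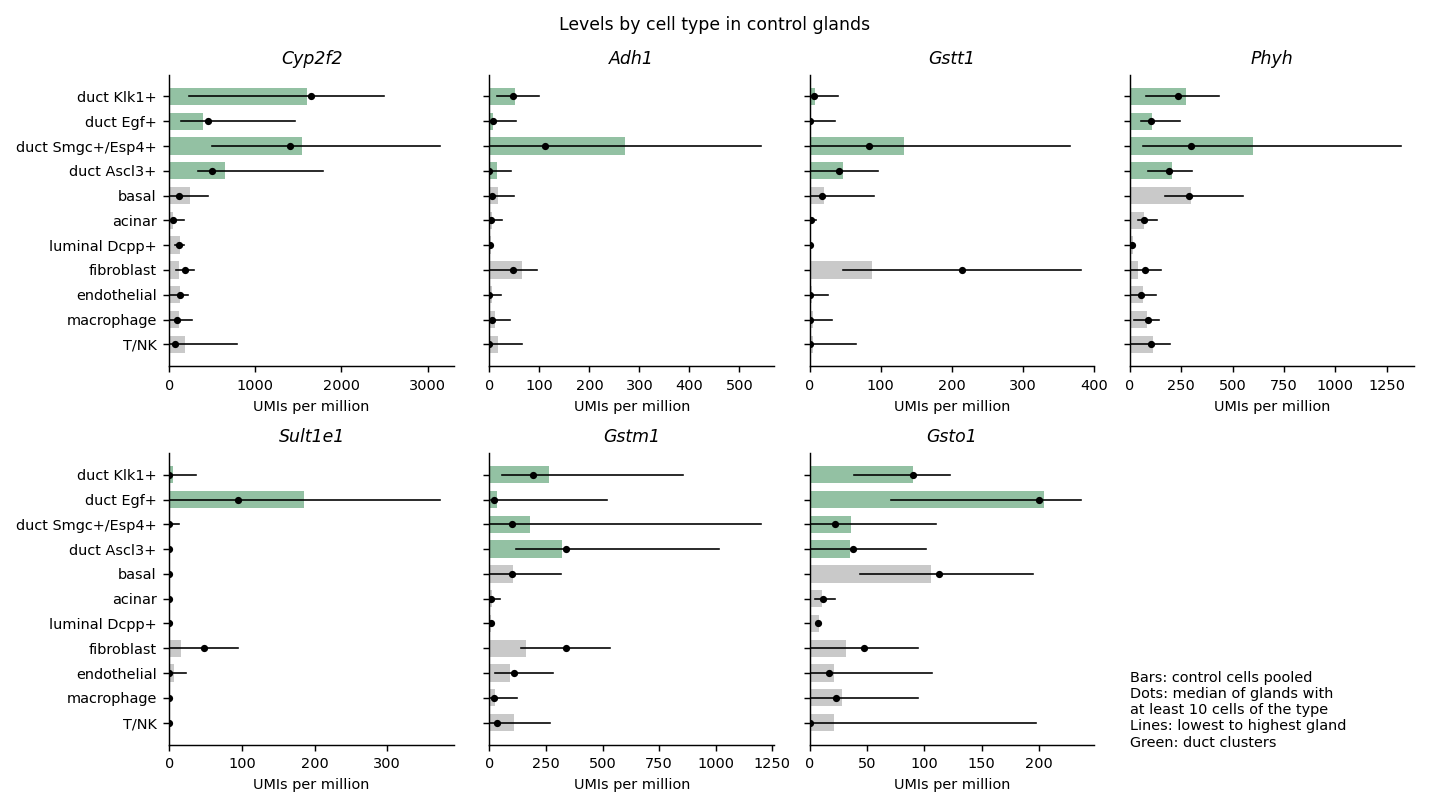
Level of each gene in CPM (horizontal axes, each gene on its own scale) by cell type in control glands; bars pool all control cells, dots are the median and lines the lowest to highest gland with at least 10 cells. The longest bar lies in a duct population (green) for each gene: Klk1+ cells for Cyp2f2, Smgc+/Esp4+ cells for Adh1, Gstt1 and Phyh, Egf+ cells for Sult1e1 and Gsto1, and Ascl3+ cells for Gstm1.

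Across the 13 named types with at least 50 control cells, the pairs of members had Pearson correlations of log2 levels from -0.11 to 0.83, highest for Adh1 with Gstt1. These points share glands and libraries and are given as a description. By the same measure over 5182 genes, the genes most like Cyp2f2 were Pde4d (0.96), Pdha1 (0.95) and Ces1d (0.95). Those most like Phyh were Pigyl, Gm11964 and Hsd17b10 (0.93, 0.92 and 0.92), and those most like Adh1 included Paqr6 and Gstt1 (0.88 and 0.83). Gstt1 was most like Ltbp3, Ube2g1 and Ctgf (0.89, 0.88 and 0.88), and Gstm1 most like Arfrp1, Ndufs8 and Nxf1 (0.97, 0.97 and 0.95). Sult1e1 followed RP23-3L20.5, RP23-3L20.6 and Tm4sf5 (0.97, 0.96 and 0.96), and Gsto1 followed Tgfb2, Car13 and Ngfr (0.96, 0.94 and 0.91).

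The share of each gene's UMIs that came from duct cells was 70.3% in control and 68.4% in double-mutant glands for Cyp2f2, and 62.6% and 36.1% for Gsto1. For Gsto1 the Egf+ share went from 43.8% to 9.4%, while the unnamed cluster led by Cnn1 and Sostdc1 held 4.0% in control and 11.1% in double-mutant glands, and macrophages held 2.0% and 12.9%. Egf+ cells numbered 993 in control and 189 in double-mutant glands. All duct cells together were 14.1 to 49.5% of the cells of a control gland (median 32.3%) and 4.79 to 35.1% of those of a double-mutant gland (median 17.8%). Whole-gland levels move with these shares, and fewer duct cells and less RNA per cell cannot be told apart in sums over a gland or in bulk RNA. Within Egf+ cells Sult1e1 had a gland mean of 126 CPM in control (SD 130, 9 glands) and 116 in double-mutant glands (SD 18.0, 4 glands). Pooled over these cells it was at 185 and 120, and under the male label at 204 and 126. This difference was not tested.

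**Figure D2:**
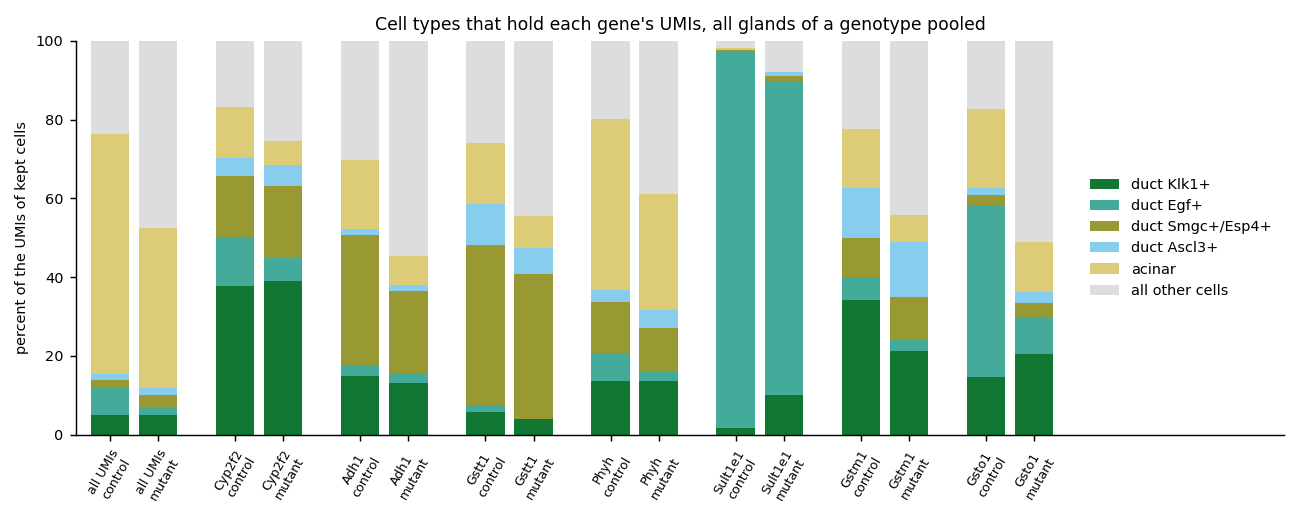
Percent of each gene's UMIs (vertical axis) that lay in each cell type, with all kept cells of a genotype pooled; the first pair of bars gives all UMIs. Duct cells held 15.5% of all control UMIs but 70.3% of those of Cyp2f2 and 97.7% of those of Sult1e1, and the Egf+ part of Gsto1 was 43.8% in control and 9.4% in double-mutant glands.

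Between genotypes, the question was whether the enzymes differed in glands with the tumor alleles. In sums over whole glands (edgeR's quasi-likelihood test with sex and stage as covariates, TMM scaling, Benjamini-Hochberg adjustment over 10940 genes) 2 of the 7 genes passed an adjusted p of 0.05, both lower in double mutants, where 21.9% of all genes passed and 7.39% passed as lower. Gsto1 fell by 0.84 on the log2 scale (SE 0.22, adjusted p = 0.0092). Sult1e1 fell by 2.67 (SE 0.76, adjusted p = 0.0138). It was chosen by a sex difference of control glands, and those control males enter this contrast, so its value is given as a description. Phyh (-0.68, SE 0.26, adjusted p = 0.055) and Cyp2f2 (-0.65, SE 0.25, adjusted p = 0.059) missed the threshold, as did Gstm1 (-0.44, SE 0.29), Gstt1 (0.04, SE 0.36) and Adh1 (-0.0007, SE 0.41). Without any 1 of the double-mutant glands P40 replicate 1, P40 replicate 4 and P90 replicate 1, Phyh and Cyp2f2 passed as well, making 4. With batch in place of stage, in the batches that hold both genotypes, 3 members passed: Gsto1 (-1.03, adjusted p = 0.0195), Sult1e1 (-3.91, adjusted p = 0.0064) and Phyh (-1.004, adjusted p = 0.0251). Some of these batches held P40 controls alone beside double mutants of both stages, so stage is mixed into this genotype difference. The median over the 7 genes was -0.65 and over all tested genes 0.02.

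These calls depend on the scaling. TMM factors, which correct for a few very abundant transcripts, had a median of 0.759 in control and 1.1999 in double-mutant glands, and scaling by library totals in their place moved the median of all genes by 0.66. On that scale Gsto1 differed by -0.17 (adjusted p = 0.572) and Sult1e1 by -1.87 (adjusted p = 0.0557), and of the calls among all genes 0.863% were lower, against 33.8% with TMM. With DESeq2, Sult1e1 differed by -1.498 (adjusted p = 0.295), and Gsto1, Phyh and Cyp2f2 passed. Over all settings tried, the adjusted p ran from 0.00096 to 0.572 for Gsto1 and from 2.86e-06 to 0.295 for Sult1e1. In the per-gland values that follow, given as CPM of a gland's total, Gsto1 and Phyh at P90 lie closer between genotypes than in the fit. At P40 the direction turned: mean CPM in control and double-mutant glands was 22.1 and 26.9 for Gsto1, 94.1 and 122.7 for Phyh. For Cyp2f2 it was 183.8 and 235.7.

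Gsto1 ran from 11.5 through a median of 23.1 to 28.5 CPM in control glands at P40 and from 24.8 through 45.6 to 91.7 at P90. In double-mutant glands it ran from 12.5 through 27.3 to 44.9 at P40 and from 10.4 through 36.8 to 55.5 at P90. The genotypes overlapped at both stages, and the highest 2 values, 91.7 and 71.5, were control males at P90.

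**Figure D3:**
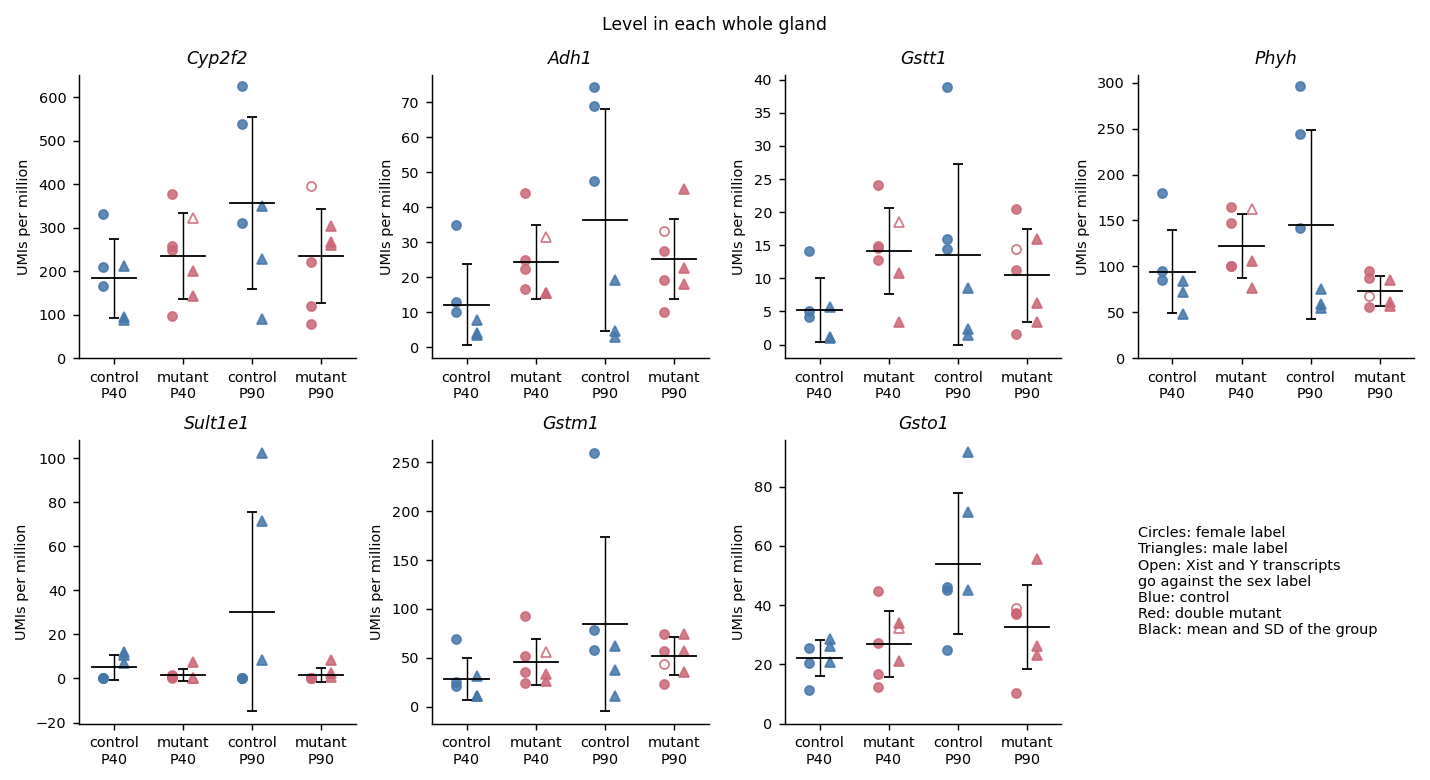
Level of each gene in CPM of a whole gland's total (vertical axes), 1 point per gland, with black lines for the mean and SD of the 6 or 7 glands of a group; circles carry a female and triangles a male label, and open symbols are the 2 libraries whose sex transcripts go against the label. Sult1e1 is highest in control males, up to 102, and the circles of control glands lie above the triangles for Phyh.

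By stage, 0 of the 7 genes passed at P40, where 1.37% of all genes did, and 3 passed at P90, all lower in double mutants, where 8.15% of all genes passed and 2.7% as lower. At each stage some double-mutant glands came from batches without a control gland of that stage, most of them at P90. Genotype and batch therefore cannot be fully told apart within a stage. At P40 Gstt1 was the 1 member under an unadjusted p of 0.05 (0.90, SE 0.44, adjusted p = 0.234), and DESeq2 also passed 0. At P90 Sult1e1 fell by 4.01 (SE 0.99, adjusted p = 0.0147), Gsto1 by 1.24 (SE 0.30, adjusted p = 0.0130) and Phyh by 1.16 (SE 0.34, adjusted p = 0.0375). Control males by which Sult1e1 was chosen enter this contrast as well, so its value is again a description. Phyh at P90 ran from 55.1 through 109 to 296 CPM in control glands and from 56.1 through 67.9 to 95.5 in double-mutant glands. The high values were the 3 control females, each above every double-mutant gland. Without the libraries that went against their sex label Phyh at P90 was at -1.004 (adjusted p = 0.095), and with library totals Sult1e1 (-3.37, adjusted p = 0.0398) was the 1 member that passed. On that scale 4.88% of all calls at P90 were lower, against 33.1% with TMM. Over all settings tried, the adjusted p at P90 ran from 0.0014 to 0.158 for Phyh and from 3.57e-16 to 0.251 for Sult1e1.

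All 7 estimates at P90 were below 0 and 4 of 7 at P40, where Gsto1, Phyh and Cyp2f2 turned positive on library totals (0.32, 0.42 and 0.39). The difference of the genotype effects between stages passed for 0 of 7 genes, where 0.00914% of all genes passed. At an unadjusted p under 0.05 it held for 1 member, Gstt1 (-1.81, SE 0.64, adjusted p = 0.698), and DESeq2 passed 0 as well. This difference uses the glands of both contrasts, which share no gland.

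From P40 to P90, 0 of the 7 genes passed in control glands, where 5.06% of all genes did. Adh1, Gstt1, Sult1e1, Gstm1 and Gsto1 had an unadjusted p under 0.05, 5 of 7 against 17.5% of all genes. Control males by which Sult1e1 was chosen enter this contrast too, so its place in this count is a description. Gsto1 differed by 0.89 (SE 0.30, adjusted p = 0.080; 0.041 to 0.102 over all settings tried) and passed with DESeq2 and with library totals, where 1.08% of all calls were lower against 11.2% with TMM. Gstm1 differed by 1.16 (SE 0.40, adjusted p = 0.095), and 1 gland at P90 stood at 260 CPM with the other 5 between 11.4 and 78.8. All control glands of a stage came from other batches than those of the other stage, so stage and batch cannot be told apart in controls, and the duct share of cells went from a median of 21.0% to 42.7%. In double-mutant glands 0 of 7 genes passed, with DESeq2 too, where 0% of all genes passed. Phyh was the 1 member there with an unadjusted p under 0.05 (-0.88, SE 0.33, adjusted p = 0.391).

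Sult1e1 marked the sexes of control glands, the difference it was chosen by. Control males held 7.20, 10.6 and 11.9 CPM at P40 and 8.21, 71.3 and 102 at P90. Of the 6 control females, 5 had 0 and 1 had 0.256, a single UMI. The sexes did not overlap, as for 0.206% of 19410 genes that were higher in every control male. Within control glands, Egf+ cells held 495 Sult1e1 UMIs in 849 male cells and 1 UMI in 144 female cells.

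Phyh went the other way in control glands. Its 6 females ran from 85.003 through a median of 161 to 296 CPM and its 6 males from 47.8 through 65.6 to 84.3, without overlap, as for 0.531% of genes that were lower in every control male. Adh1 had a mean of 41.4 ± 27.3 (SD, n = 6) in control females and 7.01 ± 6.196 in control males. Gstt1 had 15.4 ± 12.5 and 3.37 ± 3.11, and both genes overlapped between the sexes. The fitted male minus female differences were -1.94 (SE 0.34) for Adh1, -1.69 (SE 0.44) for Gstt1, -1.12 (SE 0.41) for Gstm1, -0.91 (SE 0.21) for Phyh, -0.64 (SE 0.25) for Cyp2f2 and 1.06 (SE 0.26) for Gsto1, so that Gsto1 and Sult1e1 leaned to males and the other 5 genes to females. In Smgc+/Esp4+ cells Phyh was at 888 CPM in control females and 120 in control males, and Adh1 at 353 and 136.

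In double-mutant glands no member passed the test of sex, where 0% of all genes passed, including 0 with DESeq2 and 0 of the 6 tested members at an unadjusted p under 0.05. Only 2.16% of all genes had an unadjusted p under 0.05, and the libraries that went against their sex label were included. The result therefore cannot decide whether the sex differences of control glands were kept. Sult1e1 had too few UMIs for this test. Its values under the male label were 0, 0, 0.778, 2.28, 7.37 and 8.41 CPM, where the first 0 is the library whose transcripts were female. Under the female label they ran from 0 to 1.73, with 5 of 8 glands at 0. Adh1 was at 24.7 ± 11.7 (SD, n = 6) under the male and 24.7 ± 10.4 (SD, n = 8) under the female label. Without the libraries that went against their label the means were 23.4 and 23.5. In Smgc+/Esp4+ cells of double mutants without those libraries, Phyh was at 602 CPM in females and 83.8 in males.

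After these values were seen, the genotypes were compared within each sex. Among males Sult1e1 fell by 3.16 (SE 0.85, adjusted p = 0.0490), where 0.727% of all genes passed as lower, and without the library labelled male that carried female transcripts it was at -2.997 (adjusted p = 0.0707). Adh1 was at 1.19 (SE 0.42, adjusted p = 0.103) among males and at -1.01 (SE 0.31, adjusted p = 0.106) among females. Sult1e1 was chosen by a difference that its control males take part in, so its fall among males is a description as well. The difference of the genotype effects between the sexes contains that difference for Sult1e1, for which it is given as a value alone (-5.43, SE 2.27). It passed for 0 of the other 6 genes, where 0% of all genes passed, and for 0 with DESeq2. At an unadjusted p under 0.05 it held for 1 of them, Adh1 (2.15, SE 0.52, adjusted p = 0.734).

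Within duct cells summed per gland, 1 of 6 tested genes passed, where 2.89% of all genes passed and 1.02% as lower. Gsto1 fell by 0.94 (SE 0.23, adjusted p = 0.0216). The other 5 lay between -0.30 for Phyh and 0.37 for Gstt1, and Cyp2f2 was at -0.08 (SE 0.20). The call on Gsto1 was lost without the double-mutant library labelled male that carried female transcripts (adjusted p = 0.0593 without that gland), and on library totals the value was -0.51 (adjusted p = 0.0858), with Cyp2f2, Phyh and Gstm1 turning positive and 2.47% of all calls lower against 35.4% with TMM. Over all settings tried its adjusted p ran from 0.00041 to 0.0858. Duct cells of double-mutant glands held fewer Egf+ cells, the population in which Gsto1 was highest. In Egf+ cells Gsto1 was at 214 CPM in control males (849 cells) and 141 in double-mutant males (161 cells). In females it was at 111 (144 cells) and 59.3 (28 cells). Without the libraries that went against their label the double-mutant values were 142 and 44.995. The 2 double-mutant female values came from 3 and 2 UMIs, at and below the floor of 3 counts, so no difference among females was read. By gland, with both sexes together, Egf+ cells ran from 71.2 to 236 in 9 control and from 0 to 265 in 4 double-mutant glands. These ranges overlapped, and the difference among males was not tested. In Klk1+ cells Gsto1 differed by 0.04 (SE 0.22), and none of the 4 tested members passed there, where 0.829% of all genes did, nor with DESeq2, nor at an unadjusted p under 0.05. None of 3 tested members passed in acinar cells, where 1.27% of all genes did, with the same counts of 0 by DESeq2 and unadjusted.

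**Figure D4:**
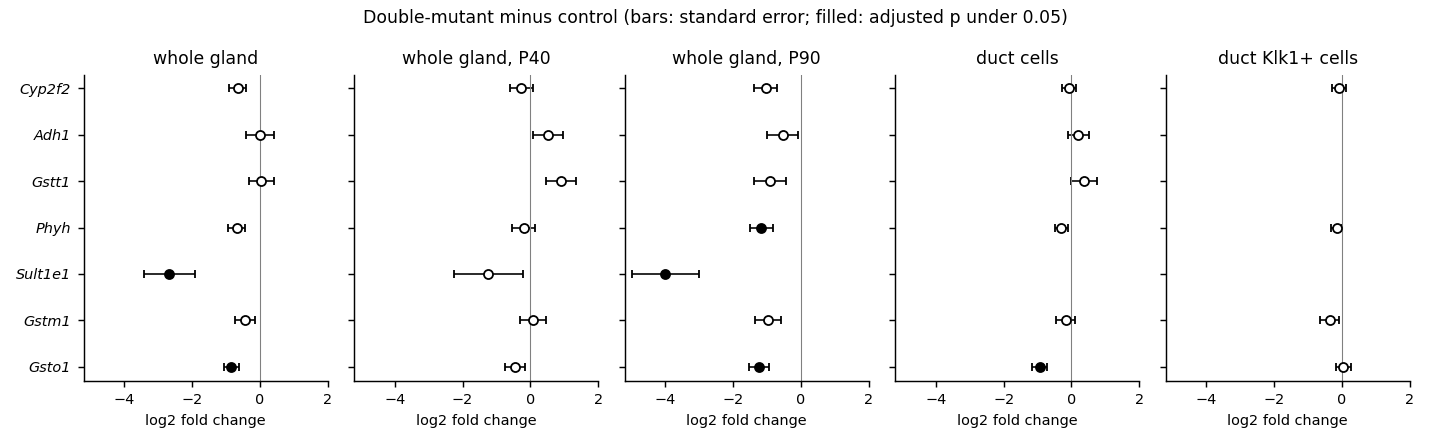
Double-mutant minus control log2 fold change (horizontal axes) of each gene in 5 comparisons, with bars for the standard error and filled points for an adjusted p under 0.05. Gsto1 is filled in the whole gland (-0.84), at P90 (-1.24) and in duct cells (-0.94), and lies at 0.04 in Klk1+ duct cells; genes without a point had too few UMIs.

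Of 178 other genes of the same pathways, 92 could be tested in whole glands, and 12 were higher and 17 lower in double mutants with TMM scaling, where 14.5% of all genes were higher and 7.39% lower. With library totals 34 were higher and 0 lower, so the lower calls that follow hold relative to the median gene with TMM and none passed with totals, while Slc27a2, Cyp4v3, Cyp4f13 and Ahr passed as higher on both scales. Glutathione genes had 4 lower and 0 higher of 17 tested, among them Gsta4, which conjugates the lipid peroxidation product 4-hydroxynonenal and fell by 0.999 (SE 0.27, adjusted p = 0.0104). Phase I genes had 7 lower and 5 higher of 30. Cyp2b10, a xenobiotic-inducible P450, fell by 1.78 (SE 0.53, adjusted p = 0.0180), Aldh1a7 by 1.06 and Ephx2, the soluble epoxide hydrolase, by 1.01, while Cyp4v3 rose by 1.32 and Cyp4f13 by 1.23.

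Steroid and retinoid genes had 2 lower and 4 higher of 16. Hsd11b1, which regenerates active glucocorticoids, fell by 1.02 in whole glands (SE 0.28, adjusted p = 0.0110) and by 1.19 in duct cells (SE 0.34, adjusted p = 0.0444). Peroxisomal genes had 3 lower and 1 higher of 18, the one higher being Slc27a2, a fatty acid transporter (3.16, SE 0.62, adjusted p = 0.0008). Sulfation and glucuronidation genes had 1 higher of 5. Among 6 tested regulators, Ahr, the dioxin receptor, rose by 1.201 (SE 0.36, adjusted p = 0.0189) and Nfe2l2, the regulator of antioxidant genes, was at 0.49 (SE 0.18, adjusted p = 0.0507). At P90 there were 5 higher and 6 lower of 92 (8 and 0 with library totals), where 5.46% of all genes were higher and 2.7% lower. At P40 there were 0 higher and 1 lower (Aldh1a7, -1.72), against 1.31% and 0.064% of all genes. In duct cells 1 was higher (Aldh3a2, 0.81) and 1 lower of 46, against 1.86% and 1.02%. In acinar cells 0 were higher and 2 lower of 35 (Aldh1a7, -1.09, and Mgst3, -0.57), against 0.982% and 0.285%. With library totals Aldh1a7 at P40 still passed (-1.10), and neither Hsd11b1 in duct cells nor the 2 acinar genes did. From P40 to P90 in control glands Cyp2b10 rose by 2.32, on both scales past the threshold, and Aldh1a7 fell by 1.59, with TMM alone; they were the 2 of 92 that passed, where 4.5% of all genes were higher and 0.567% lower.

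Bulk RNA gives levels per transcript length, as TPM, so genes can be set side by side. In the control library Cyp2f2 was highest at 82.4 TPM, followed by Phyh at 62.3, Gstm1 at 18.8, Gsto1 at 9.99, Adh1 at 6.43 and Gstt1 at 3.56. Sult1e1 had 1 read in the control and 3 in the double mutant, both females, of 34515744 and 34729551 reads, which is at the floor of 3 counts. In the double-mutant library the order began with Phyh at 75.0 TPM and Cyp2f2 at 48.7.

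As ratios of double mutant to control in CPM, Cyp2f2 was at 0.582 (95% counting interval 0.559 to 0.606), Gstt1 at 0.646 (0.518 to 0.803), Gsto1 at 0.657 (0.586 to 0.736) and Gstm1 at 0.747 (0.682 to 0.819). Phyh was at 1.19 (1.14 to 1.23) and Adh1 at 1.69 (1.52 to 1.88). At least 1.5 times lower were 3 of 6 members against 25.8% of 13276 genes, and at least 1.5 times higher was 1 against 6.84%. The intervals cover counting error only. The median of all genes lay at -0.31 on the log2 scale, and relative to it the directions of the 6 genes were kept, but 0 of 6 were then at least 1.5 times lower, against 11% of genes, and 1 was higher, against 12.6%. With 1 library per genotype at different ages there is no replicate check, and the summed level of 9 markers of Egf+ ducts was 2474 TPM in the control and 371 in the double mutant.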

How the data were processed

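Drop-seq and CITE-seq values were deposited by the authors as UMI counts per gene and barcode, and bulk values as read counts per gene (STAR and featureCounts on mm10, named in the submitters' notes). The members and gene lists were chosen with earlier results of these data known. Barcodes with at least 100 genes and under 15% mitochondrial UMIs were kept. Cells were clustered (scanpy 1.11.5, Leiden at resolution 1.0) without members or pathway genes, and clusters were named from at least 3 markers. No doublet caller was run; an alternative left out the 5% of cells with the most UMIs. Sums of UMIs over a whole gland, or over a population with 10 or more cells in it, were tested with edgeR 4.0.16 (quasi-likelihood, TMM, filterByExpr), with DESeq2 1.42.0 as an alternative; standard errors are the fitted coefficient over the square root of F. The fits were tested on simulated data. Counts per 1000000 (CPM) and TPM were computed from these counts. Glands are separate libraries; where separate animals are not stated, p-values measure the spread between these samples. Named pathway genes were those with adjusted p under 0.05, at most 5 per direction by size, besides regulators; genes alike in pattern were the 3 with the highest Pearson r of log2(CPM + 10) among genes with at least 50 CPM in 1 type. Alternatives covered the scaling, filter, libraries, cells, clustering and blocks; comparisons within a sex, the interaction with sex and library totals were chosen after seeing the data. CITE-seq antibody counts were not used. Some genes that these rules name are not reported here.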

Additional observations from a re-analysis of the deposited data

Results flagged for a closer look

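Each group of 6 or 7 glands was checked for a gland far from the others in CPM, and 7 of 28 groups had one, where the rule picks about 1 in 20 groups of independent, normally distributed values. These groups are 7 genes in the same 4 sets of glands and hold both sexes, so that rate need not apply. In the female control gland P40 replicate 1, which also had the highest duct share of its group (35.4% of cells), Adh1 was at 34.8 with the nearest other gland at 12.8, Gstt1 at 14.2 against 5.70, Phyh at 179.8 against 95.1 and Gstm1 at 68.8 against 30.9. The part of the duct share in these values was not tested. Gstm1 was at 259.8 in control P90 replicate 2, where the nearest gland had 78.8. Sult1e1 was at 7.37 in the male double mutant P40 replicate 3 and at 8.41 in the male double mutant P90 replicate 1, and the nearest other glands had 1.73 and 2.28.

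The CITE-seq libraries entered no test. The 2 double mutants and control replicate 2 were labelled female and control replicate 1 male, but all 4 libraries held both Xist (74.8 to 229.7 CPM) and Y-linked transcripts (14.5 to 34.3 CPM), so the sex labels could not be checked. Gstt1 was at 26.3 and 29.8 CPM in double mutants against 2.86 and 5.44 in controls. Gstm1 was at 65.4 and 88.02 against 43.5 and 33.5, and Adh1 at 28.1 and 38.8 against 20.6 and 25.4, where the first control is the one labelled male. The reverse held for Cyp2f2 (99.8 and 132.8 against 136.7 and 142.3), Phyh (79.9 and 61.2 against 103.5 and 92.5) and Gsto1 (24.5 and 17.9 against 33.7 and 28.1). Cells of the Egf+ and Ascl3+ clusters, the named duct clusters there, were 0.784% and 0.805% of the double-mutant and 11.3% and 8.24% of the control cells. A further cluster of 224 cells, led by Ltf, Smgc, Clu and Esp4 and not counted as duct, held 447 UMIs of Cyp2f2 and made up 12.1% and 9.66% of the double-mutant and 6.55% and 7.55% of the control cells. Control levels there were not all highest in duct cells. Fibroblasts (49 cells) had 552 CPM of Adh1 from 24 UMIs, 828 of Gstm1 from 36 and 115 of Gstt1 from 5. Basal cells (34) had 899 of Phyh and 402 of Gsto1. Egf+ cells had 298 of Gsto1 and the most Sult1e1 (44.8), and Ascl3+ cells 401 of Gstm1. Cyp2f2 was highest in the further cluster (2032), which had 318 of Adh1 and 483 of Phyh. With 2 glands per genotype an exact permutation test cannot pass the threshold. Sult1e1 had 0 UMIs in both double-mutant libraries and 2 and 6 in the controls.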

How the results depend on the processing

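Counts of members that passed moved as follows. The whole-gland count of 2 became 4 without a filter on low counts, 1 after thinning and in males alone, and 0 with library totals, in females alone and, in each sex, without the libraries that went against their sex label. The P90 count of 3 became 5 without a filter and 1 with totals, and the duct count of 1 became 2 without a filter and 0 with totals, at resolution 0.7 and without those libraries. From 0, genotype by stage and genotype by sex reached 2, stage in control 3, stage in double mutants 1 and sex in double mutants 1 without a filter, and stage in control reached 1 with DESeq2 and with totals. Genes highest in a duct population went from 7 to 4 at resolution 0.7, where the Smgc+/Esp4+ cluster had no name. Leaving out 1 gland gave 2 to 4 members in whole glands and 0 to 1 in duct cells.

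Signs turned mostly for estimates near 0. Whole-gland Adh1 (-0.0007) was 0.037 with DESeq2, 0.023 with RLE factors, 0.039 with all barcodes, 0.024 with batch for stage, 0.045 with the replicate block, 0.017 without the libraries against their label, 0.065 without the library the study left out of subclustering, 0.10 without all 3, 0.55 with totals, and 1.19 in males or 1.01 without the conflicting library. Gstt1 (0.04) was -0.019 with all barcodes, -1.9e-06 without a filter, -0.046 thinned, -0.043 without the libraries against their label, and -0.49 and -0.35 in females. Gstm1 was 0.12 with totals and 0.16 in males. At P40 Sult1e1 was 0.67 with DESeq2, Gstm1 -0.070 without the libraries against their label and -0.074 without all 3, and Cyp2f2, Phyh and Gsto1 0.39, 0.42 and 0.32 with totals. With totals duct Cyp2f2, Phyh and Gstm1 were 0.29, 0.081 and 0.15, and Klk1+ Cyp2f2 and Phyh 0.17 and 0.12. Duct Gstm1 was 0.018 at resolution 0.7, and Klk1+ Gsto1 -0.096 without a filter. Control stage Phyh was -0.041 thinned. Double-mutant stage Adh1 was -0.047 with all barcodes, -0.035 without a filter, -0.082 thinned and -0.41 with batch as a factor, where Gstm1 was -0.55 and Gsto1 -0.48, and Cyp2f2 was 0.044 with totals and 0.19 without all 3 libraries. Double-mutant sex Gstm1 was -0.13 with totals, -0.20 without the libraries against their label and -0.16 without all 3, where Cyp2f2 was -0.070. The cause was not tested.

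With 1 gland left out, whole-gland Adh1 ran from -0.22 to 0.10 and Gstt1 from -0.13 to 0.28, duct Cyp2f2 from -0.15 to 0.024 and Gstm1 from -0.25 to 0.12, Klk1+ Gsto1 from -0.15 to 0.12, and double-mutant sex Adh1 from -0.16 to 0.44, Gstm1 from -0.080 to 0.20 and Phyh from -0.35 to 0.098. Deviations of same-numbered glands correlated from -0.31 to 0.58 over 12 pairs, 5 above 0.1. Those 5 were all at P40 (0.16 to 0.58), where the remaining pair was at -0.061. Every pair at P90 was below 0 (-0.31 to -0.034). Replicate numbers did not pair the glands at P90, and at P40 a pairing was not settled. With the replicate block Phyh (-0.90, adjusted p = 0.0074) passed and Sult1e1 (-2.04, adjusted p = 0.056) did not. Over the settings with both sexes, calls among all genes ran from 1156 (thinned) through 2393 as reported to 5797 (totals) in whole glands, from 9 through 150 to 2186 at P40, from 328 through 892 to 1832 at P90, from 12 through 554 to 1523 for stage in control, from 58 through 127 to 768 in duct cells, from 9 through 12 to 73 in Klk1+ cells and from 21 through 40 to 271 in acinar cells, and without a filter they rose from 1 to 189 for genotype by stage and from 0 to 57, 38 and 627 for genotype by sex, sex and stage in double mutants. Low UMI counts limit Sult1e1, Gstt1 and Adh1.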
